A study of Bos taurus with 60 samples.

Results

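miR-205 is a mature microRNA (miRNA), a short RNA that lowers the output of the messenger RNAs it pairs with, and it is known as a miRNA of stratified squamous epithelium. It was followed here through 60 small RNA libraries of cattle (Bos taurus) intestine. A list of 2 miRNAs linked to squamous epithelium named the rows bta-miR-203 and bta-miR-205. The pair was selected on measured values of these data, which were taken to be the levels over regions and shedding statuses. Of these, bta-miR-205 was analysed, 1 row of the 608 in the read count table, and bta-miR-203 is not analysed here. The libraries came from 6 gut regions, 3 of the small intestine (duodenum, proximal and distal jejunum) and 3 of the large intestine (cecum, spiral and descending colon), with 5 non-shedders and 5 super-shedders in each. Non-shedders were cattle without detectable Escherichia coli O157 in their feces, and super-shedders were cattle that passed large numbers of this bacterium. No age, breed, sex or other agent is given for either group. All tissue was snap-frozen after death, and each library is bulk tissue of 1 region. Non-shedder titles hold the letters A to E and super-shedder titles F to J; a letter is read here as 1 animal, which the labels do not state. The labels' protocol speaks of rectal tissue for every library, whereas the tissue labels name the 6 regions, which were used.

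In mammals miR-205 is abundant in skin, esophagus and other layered epithelia and in the basal cells of mammary gland and prostate, and in mice it is needed for the growth of skin stem cells. In cultured cells it shares targets with the miR-200 family of epithelial miRNAs, among them the mRNAs of ZEB1 and ZEB2, repressors of the adhesion protein E-cadherin. The intestine is lined by a single layer of columnar cells, whose typical miRNAs are miR-192, miR-194 and miR-215. In the RefSeq gene table of assembly ARS-UCD2.0, MIR205 lies between CAMK1G, a protein-coding gene, and the long non-coding RNA gene LOC104974529.

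Library totals ran from 535373 to 19346766 counts, with a median of 1735055, with 350 to 507 miRNAs detected per library. The small-intestine libraries were shallower, with a median total of 1485182 counts against 3060631 in the large intestine. Levels below are read counts over the library size after TMM scaling, in CPM (counts per 1e6 library counts), and 1 count was worth between 0.0749 and 1.01 CPM. Held against marker miRNAs, 13 libraries were set apart by the position marker miR-196b, the enterocyte miRNA miR-192 or the liver miRNA miR-122. Of these, 11 went against their region label by miR-196b, 10 came from super-shedders, and 6 came from letter I. The duodenum and descending colon of letter I matched their region by miR-196b. They stood out by high miR-122 and by low miR-192, in that order. All 13 are called libraries against their label below. Fitted differences and mean levels by region of miR-205 are given with and without them. Values of other miRNAs, correlations and values of single libraries leave none out.

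miR-205 was a scarce miRNA of the bovine gut wall. It held 1055 of 168779156 counts, an unscaled 6.25 CPM, and ranked 258 of 608 by its mean level of 4.75 ± 5.91 CPM (SD, n = 60). At least 1 count was seen in 50 libraries, 29 of 30 from the large intestine and 21 of 30 from the small intestine. In the 10 libraries with 0 counts the depth allows a level of up to 1.09 to 2.69 CPM, where 3 counts are taken as the limit and counting error alone is covered. Of all its counts, 47.2% came from the descending colon of letters A and J, the deepest libraries of the series.

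The level of miR-205 differed mainly between the small and the large intestine. It averaged 1.39 ± 1.60 CPM (SD, n = 30) in the small intestine and 8.12 ± 6.72 CPM (SD, n = 30) in the large intestine. Small-intestine libraries ran from 0 through a median of 0.819 to 5.78 CPM, and large-intestine libraries from 0 through 6.55 to 22.2 CPM. In bulk tissue, fewer cells of a type and less RNA per cell cannot be told apart. The classes overlapped, yet 16 large-intestine libraries and 2 small-intestine libraries reached 5 CPM. Since these levels were in view when the row was chosen, they are a description and carry no p-value.

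In the duodenum of non-shedders, letters A to E held 2.27, 0.771, 0, 2.32 and 1.15 CPM of miR-205. In the duodenum of super-shedders, letters F to J held 1.91, 5.78, 0.576, 1.97 and 0.465 CPM. Only letter G, with 12 counts, stood above the non-shedders there. The proximal jejunum of letters A to E held 1.32, 5.01, 0, 0 and 0.802 CPM, and that of F to J held 0, 0, 1.78, 0.301 and 0 CPM. Of its 10 libraries 5 had 0 counts, and the high value of letter B rests on 15 counts. In the distal jejunum letters A to E held 0.963, 0.467, 0, 4.25 and 0 CPM, and F to J held 0.836, 2.87, 3.94, 0 and 1.90 CPM. Both statuses there spanned 0 to about 4 CPM and overlapped almost fully.

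In the cecum miR-205 stood at 8.89, 2.42, 4.82, 19.2 and 0.621 CPM in letters A to E. The cecum of F to J held 12.5, 14.9, 12.2, 0 and 4.64 CPM. Letter D was the highest non-shedder, with 42 counts and a 95% exact binomial interval of 13.8 to 25.9 CPM, while letters E and I were at or near 0. In the spiral colon the non-shedder values were 11.2, 6.20, 1.13, 22.2 and 8.61 CPM for A to E. The super-shedder values there were 11.7, 15.6, 0.565, 1.93 and 4.38 CPM for F to J. The highest level of all 60 libraries was that of letter D, and the low libraries were C, H and I. In the descending colon letters A to E held 19.9, 7.17, 3.28, 15.4 and 6.90 CPM. The descending colon of F to J held 1.75, 1.81, 0.561, 4.04 and 18.9 CPM. There 4 of 5 super-shedder libraries lay at or below 4.04 CPM on 1 to 4 counts each, whereas letter J had 233 counts and an interval of 16.6 to 21.5 CPM.

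**Figure D1:**
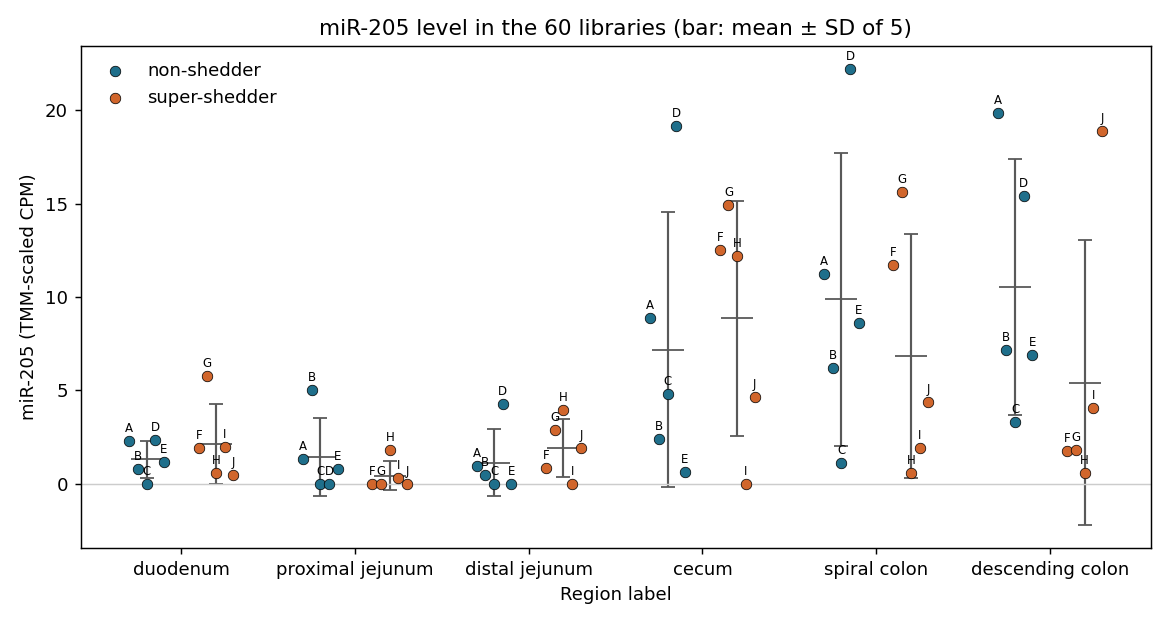
The level of miR-205 in TMM-scaled CPM (vertical axis, linear) is plotted for each of the 60 libraries by region label, with the letter above each point, blue for non-shedders and orange for super-shedders, and grey bars for the mean ± SD of 5. Small-intestine libraries stay at or below 5.78 CPM. Large-intestine libraries spread from 0.621 to 22.2 CPM in non-shedders and from 0 to 18.9 CPM in super-shedders.

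Ordered by mean, the spiral colon came first at 8.36 ± 6.98 CPM (SD, n = 10), before the cecum at 8.03 ± 6.53 and the descending colon at 7.97 ± 7.35. Then followed the duodenum at 1.72 ± 1.64 CPM, the distal jejunum at 1.52 ± 1.64 and the proximal jejunum at 0.922 ± 1.57. Without the libraries against their label the means were 11.4 ± 6.04 CPM (SD, n = 7) for the spiral colon, 10.5 ± 7.47 (n = 7) for the descending colon and 8.92 ± 6.24 (n = 9) for the cecum. For the small intestine they were then 1.69 ± 1.74 CPM (n = 9) in the duodenum, 1.55 ± 1.57 (n = 7) in the distal jejunum and 0.488 ± 0.723 (n = 8) in the proximal jejunum. Either way the 3 large-intestine regions lay within 1 SD of each other. With all libraries so did the 3 small-intestine regions. Without the libraries against their label, the proximal jejunum lay below the duodenum and distal jejunum by more than its own SD, though by less than theirs. With all libraries the step from the descending colon to the duodenum, 6.25 CPM, was the widest between neighbours in this order, and it was still smaller than the SD of the descending colon.

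Fitted with edgeR over all 60 libraries, miR-205 was 5.99-fold higher in the large intestine, a log2 difference of 2.58 ± 0.41 (SE, n = 30 libraries per class). Of 288 miRNAs tested, 34 were called higher there at an adjusted p under 0.05, or 11.8%, and miR-205 was among them, which is stated without weight since the pair was chosen with this pattern known. Among log2 differences ordered from the highest to the lowest it came 3rd, behind miR-196b (4.74 ± 0.78) and miR-196a (4.08 ± 0.53), which are encoded in the HOX gene clusters that set position along the body. The next in this order were miR-10b (1.64 ± 0.30) and miR-10a (1.49 ± 0.26), also of the HOX clusters. The median log2 difference of all 288 was -0.01. Scaling to total counts shifted that median to -0.22 and miR-205 to 2.40, and DESeq2 gave -0.15 and 2.60. Without the 13 libraries against their label the difference of miR-205 was 3.08 ± 0.40. Most of those libraries had been set apart by miR-196b, itself a marker of the large intestine.

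Each region was also set against the mean of the other 5 in the same fit. The log2 differences of miR-205 were 1.60 ± 0.44 (SE, n = 10 libraries) in the spiral colon, 1.53 ± 0.45 in the cecum and 1.52 ± 0.43 in the descending colon. They were -2.26 ± 0.71 in the proximal jejunum, -1.28 ± 0.62 in the distal jejunum and -1.10 ± 0.61 in the duodenum. The 3 large-intestine regions thus differed from each other by less than 1 SE. Several of these estimates leaned on 1 letter. The descending colon was at 0.65 ± 0.56 without letter J, the proximal jejunum at -3.04 ± 0.82 without letter B, and the distal jejunum at -1.89 ± 0.76 without letter D. Without the libraries against their label the values were 1.59 ± 0.41 in the cecum, 2.02 ± 0.42 in the spiral colon and 1.94 ± 0.42 in the descending colon. Likewise the proximal jejunum was then at -3.14 ± 0.75, the distal jejunum at -1.21 ± 0.64 and the duodenum at -1.20 ± 0.56.

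Within single letters the same order held, which describes the same levels again and is no separate test. In 10 of 10 letters the mean of the 3 large-intestine libraries was above that of the 3 small-intestine libraries. The same held in 9 of the 9 letters that keep both classes without the libraries against their label, all those of letter I being left out. With all libraries the means for the large and small intestine were 18.9 and 2.19 CPM in letter D, the highest, and 1.99 and 0.759 CPM in letter I, the lowest. The cecum, spiral and descending colon of letter I held only 0, 3 and 4 counts. In letters A, C, D and J, 3 non-shedders and 1 super-shedder, no small-intestine library reached the lowest large-intestine library. How many of all miRNAs show either pattern in as many letters was not counted. In letter C all small-intestine libraries had 0 counts, and its large-intestine mean was 3.08 CPM. The depth of its duodenum, proximal and distal jejunum allows up to 1.73, 2.24 and 1.97 CPM. The lowest large-intestine library of C, the spiral colon, held 1.13 CPM on 2 counts and is against its label. Depth therefore does not settle the order of these libraries in C. The region with the highest level varied between letters, since it was the descending colon in A, B, I and J, the spiral colon in D, E and G, and the cecum in C, F and H. With the letter as a replicate block the log2 difference between large and small intestine was 2.33 ± 0.37.

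**Figure D2:**
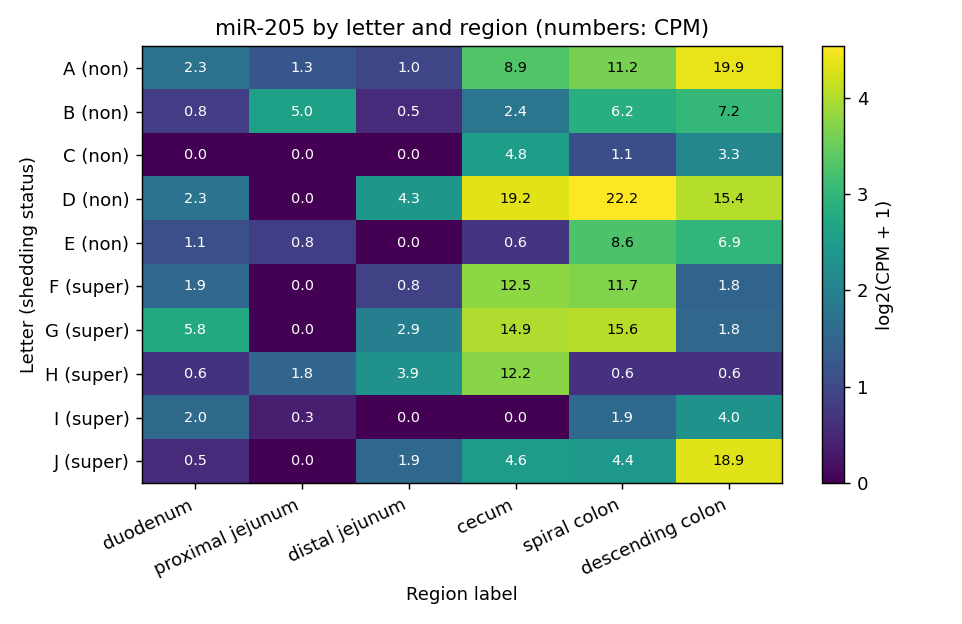
Each cell holds the miR-205 level in CPM of 1 library, with letters and status in rows and region labels in columns, and colour gives log2(CPM + 1). The brightest cells, at 15 CPM or more, all lie in the cecum and both parts of the colon, while letters C and I stay at or below 4.82 CPM throughout.

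Setting super-shedders against non-shedders addresses which intestinal miRNAs go with heavy shedding of Escherichia coli O157. For miR-205 no difference stood clear of the spread between animals. Over the 30 libraries of each status it averaged 4.26 ± 5.46 CPM (SD) in super-shedders and 5.24 ± 6.39 CPM in non-shedders. When counts were summed over the regions of each letter, A to E held 12.3, 3.99, 1.94, 9.39 and 2.92 CPM and F to J held 4.84, 8.14, 3.71, 0.759 and 9.01 CPM. The 2 sets overlapped, with the highest in non-shedder A and the lowest in super-shedder I. Such sums follow the deepest library of a letter. The descending colon gave 265 of the 314 counts of A and 233 of the 269 of J. As plain means over the 6 regions, non-shedder D was highest at 10.6 CPM. By that measure A was at 7.42, J at 5.05 and I, again the lowest, at 1.37 CPM. The fitted log2 difference of the summed counts was -0.20 ± 0.61 (SE, n = 5 letters per status). In this fit 1 of 361 miRNAs passed, or 0.277%, and it was not miR-205. Without the 13 libraries against their label the difference was 0.23 ± 0.46, of the other sign, as it was without letter A (0.21 ± 0.63).

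Region by region the sign of the shedding difference varied. In the cecum miR-205 averaged 8.87 ± 6.29 CPM (SD, n = 5) in super-shedders and 7.18 ± 7.38 CPM in non-shedders, a log2 difference of 0.33 ± 0.88 (SE), or 0.63 ± 0.72 without the library of letter I, which went against its label. In the spiral colon it averaged 6.84 ± 6.53 CPM in super-shedders and 9.87 ± 7.84 CPM in non-shedders, a log2 difference of -0.36 ± 0.72, or -0.08 ± 0.50 without the libraries against their label. In the descending colon the means were 5.41 ± 7.64 and 10.5 ± 6.85 CPM, with a log2 difference of -0.84 ± 0.74. This last value depended on 1 library, since without letter J it was -2.40 ± 0.63, and without the 13 libraries against their label, which left F and J as the super-shedders, it was -0.00 ± 0.81. miR-205 was not called in any of these regions. edgeR called 0 of 260 miRNAs (0%) in the cecum, with 16 at an unadjusted p under 0.05 and 2 called by DESeq2. It called 1 of 261 (0.383%) in the spiral colon, and 0 of 269 (0%) in the descending colon, with 8 at an unadjusted p under 0.05 and 0 by DESeq2.

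In the small-intestine regions miR-205 did not pass the low-count filter, so its values come from fits without a filter. The log2 difference between statuses was 0.67 ± 0.77 (SE, n = 5) in the duodenum, -1.91 ± 1.09 in the proximal jejunum and 0.77 ± 0.96 in the distal jejunum. Those fits called 1 of 520 miRNAs (0.192%), 1 of 535 (0.187%) and 1 of 531 (0.188%), in no case miR-205. In the proximal jejunum the groups held 19 counts in non-shedders and 3 in super-shedders, and 15 of the 19 belonged to letter B. Without letter B the value there was -0.49 ± 1.09, without letter H it was -3.07 ± 1.27, and without the libraries against their label it was -0.44 ± 1.23. In the distal jejunum leaving out letter D moved it to 2.36 ± 1.11. Without the libraries against their label the distal jejunum was at 0.34 ± 0.92 and the duodenum at 0.71 ± 0.79. Whether the shedding difference of miR-205 itself varies between regions was not tested.

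**Figure D3:**
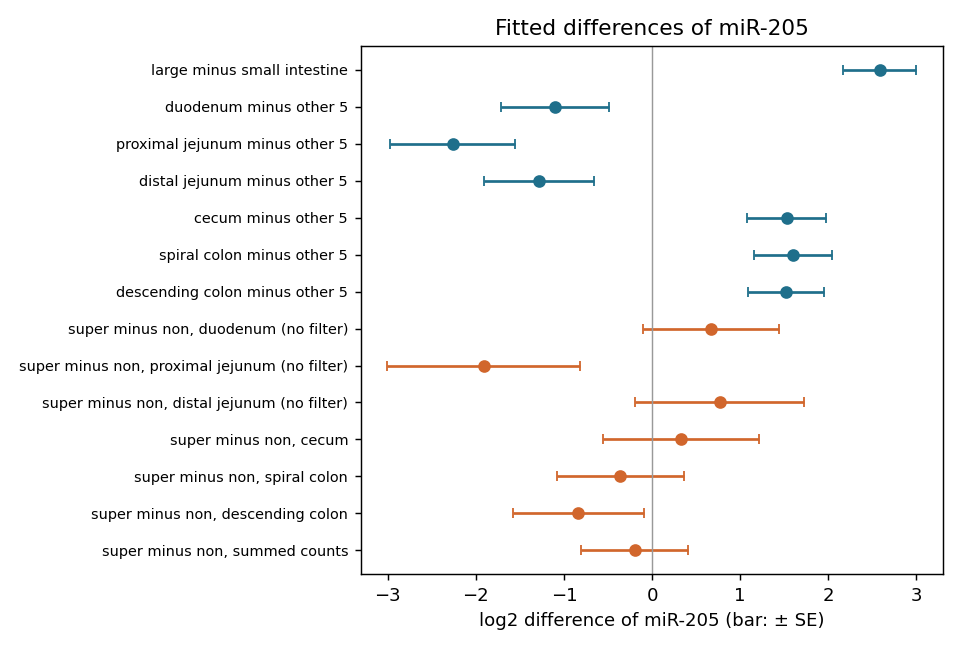
Fitted log2 differences of miR-205 are shown on the horizontal axis with bars of ± 1 SE, blue for comparisons of regions and orange for super-shedders minus non-shedders. The difference between large and small intestine is 2.58 ± 0.41, a description, since the levels were in view when the row was chosen. Its SE treats libraries of 1 letter as independent. The shedding differences fall on both sides of 0.

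miR-205 was set beside miR-196b, which is high in the hind part of the gut, because 11 libraries went against their region label by that marker. Of the 30 large-intestine libraries, 6 held under 50 CPM of miR-196b, and their miR-205 was low too. Their values were 0 CPM in the cecum of I, 1.13, 0.565 and 1.93 CPM in the spiral colon of C, H and I, and 1.81 and 0.561 CPM in the descending colon of G and H. The other 24 large-intestine libraries ran from 0.621 to 22.2 CPM of miR-205, and only 2 of them, the cecum of E (0.621 CPM) and the descending colon of F (1.75 CPM), were below 1.93 CPM. In the small intestine 5 libraries held at least 50 CPM of miR-196b. Their miR-205 was 5.01 and 0.301 CPM in the proximal jejunum of B and I, and 0.467, 3.94 and 0 CPM in the distal jejunum of B, H and I. The other 25 small-intestine libraries ran from 0 to 5.78 CPM, so miR-196b did not separate high from low miR-205 there. The part of mislabelled or mixed tissue in these values was not tested.

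**Figure D4:**
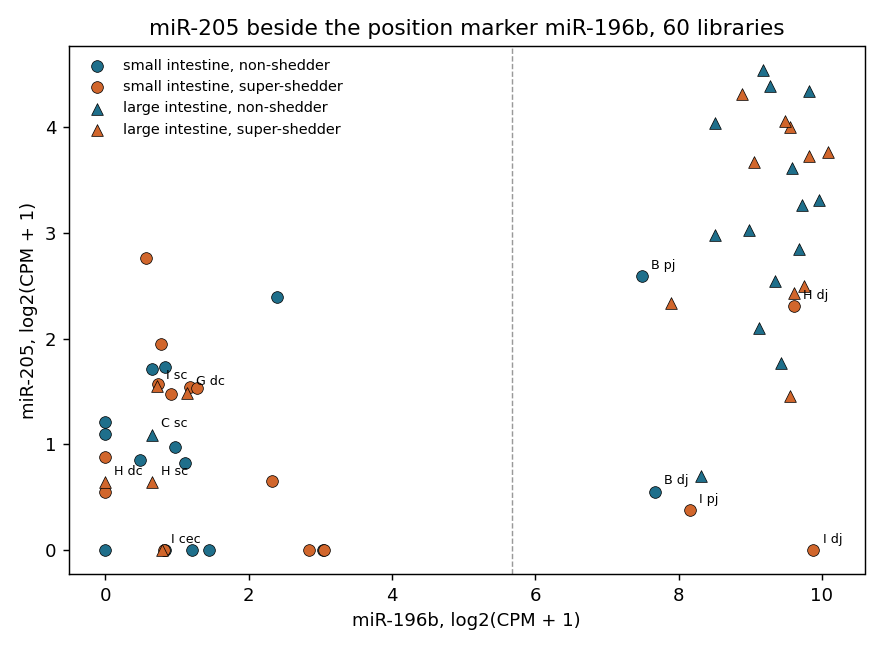
Each point is 1 of 60 libraries, with miR-196b on the horizontal and miR-205 on the vertical axis, both as log2(CPM + 1); circles are small and triangles large intestine, the dashed line marks 50 CPM, and the 11 libraries on the unexpected side are marked with their letter and region (pj and dj, proximal and distal jejunum; cec, cecum; sc and dc, spiral and descending colon). The 6 triangles left of the line lie at or below 1.93 CPM of miR-205, and the circles right of it run from 0 to 5.01 CPM.

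The squamous label could be held against only a few other miRNAs. Of the list of squamous epithelium and skin, miR-184, which is abundant in the cornea, and miR-224 were also analysed. miR-184 ran the other way from miR-205, with 4.63 ± 3.37 CPM (SD, n = 30) in the small and 3.11 ± 2.00 CPM in the large intestine (log2 difference -0.60 ± 0.21, edgeR adjusted p = 0.0274). miR-224 averaged 28.9 ± 21.0 and 32.4 ± 17.9 CPM (0.21 ± 0.20, adjusted p = 0.444). So 0 of these 2 rose with miR-205 and 1 fell, and their summed level ran from 11.8 to 114 CPM in the small and from 18.1 to 106 CPM in the large intestine. With only 2 other miRNAs of the list at hand, the row is called by its name, miR-205.

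The miR-200 family, which shares targets with miR-205, was far more abundant. In the large against the small intestine 1 of its 5 members was called higher and 0 lower, beside 11.8% and 15.3% of all miRNAs tested, with a median log2 difference of 0.39 beside -0.01 for all miRNAs tested. The called member was miR-429, at 474 ± 311 CPM (SD, n = 30) in the small and 786 ± 392 CPM in the large intestine (0.78 ± 0.28, edgeR adjusted p = 0.0337). miR-200b, the most abundant member, averaged 3193 ± 2143 and 4766 ± 2528 CPM (0.59 ± 0.29, adjusted p = 0.117). miR-141 averaged 2966 ± 2444 and 2488 ± 1355 CPM (-0.09 ± 0.28, adjusted p = 0.838). The mean of each of the 5 members was higher in the cecum than in the distal jejunum, for miR-429 922 ± 401 CPM (SD, n = 10) against 352 ± 165 CPM. Unlike miR-205, at 1.72 CPM in the duodenum, miR-141 had its highest mean there, 5196 ± 2929 CPM, and so did miR-200a (1044 ± 424) and miR-200c (689 ± 335). The summed family ran from 72.9 to 20831 CPM in the small and from 77.8 to 19089 CPM in the large intestine. With shedding, 0 of the 5 members were called in the summed counts by edgeR, with log2 differences from -0.49 ± 0.24 (miR-429) to 0.30 ± 0.19 (miR-200c).

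Over all 288 miRNAs 44, or 15.3%, were called lower and 34, or 11.8%, higher in the large intestine. Of the lists that mark other cells, the columnar enterocyte list fell in 1 of 3 members toward the large intestine, namely miR-215 (-2.03 ± 0.40, adjusted p = 1.2e-04). Its sum ran from 2644 to 251642 CPM in the small and from 3709 to 236914 CPM in the large intestine. The striated muscle list rose in 2 of 4 tested members, miR-133a (0.94 ± 0.31, adjusted p = 0.0189) and miR-499 (0.51 ± 0.18, adjusted p = 0.0302). That list summed to 61.9 to 3113 CPM in the small and 92.5 to 2701 CPM in the large intestine. The smooth muscle list rose in 0 of 2. Leukocyte miRNAs fell in 2 of 5, miR-142-3p (-0.78 ± 0.27, adjusted p = 0.026) and miR-155 (-0.55 ± 0.19, adjusted p = 0.025), and summed to 505 to 17331 CPM in the small and 1156 to 11446 CPM in the large intestine. The red blood cell (0 of 3), neural (0 of 3), enteroendocrine (0 of 2) and liver and pancreas (0 of 1 tested) lists had no member past the threshold. The part of these cell types in the difference of miR-205 was not tested.

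The miRNAs most like miR-205 across the 60 libraries were found by Spearman correlation of log2(CPM + 1) among 287 others. Closest was miR-147, a miRNA induced in inflammation in mice, at rho = 0.68 (n = 60), with 13.0 ± 7.28 CPM (SD, n = 30) in the small and 31.9 ± 24.0 CPM in the large intestine. Then came miR-410 (0.63), miR-380-3p (0.63) and miR-154c (0.62), all named as in the table, and miR-196a (0.61). The median over all 287 was 0.05. With group means removed, miR-147 (0.58) and miR-196a (0.53) came first, before miR-199c (0.49), miR-497 (0.42) and miR-1296 (0.42). These points share animals and libraries, and the total count of a library itself had a rho of 0.32 with miR-205 over the 60 libraries, 0.09 within the large and 0.06 within the small intestine. Within the 30 large-intestine libraries miR-205 had a rho of 0.69 with miR-196a and 0.54 with miR-196b, and within the small intestine -0.10 and -0.16. The 30 include 6 with miR-196b under 50 CPM, whose miR-205 was at or below 1.93 CPM. No correlation was computed without these or the other libraries against their label. Of the miR-200 family, miR-429 had a rho of 0.61 over all libraries (0.60 within the large and 0.39 within the small intestine) and miR-200a 0.51 (0.63 and 0.39). Lower values were those of miR-200b (0.40), miR-200c (0.29) and miR-141 (0.20). Over all libraries miR-184 had -0.28 and miR-224 0.02.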

How the data were processed

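The authors deposited raw read counts per mature miRNA, 1 column per sample, tested here on the values: whole numbers with differing column sums. Bowtie and edgeR are named per the submitters' processing notes. Not given in the sources used here are their versions and roles, the build and miRNA annotation, and how multi-mapping reads were counted. No coordinates are printed.

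The groups were taken from the tissue and shedding labels (12 groups of 5), and animals were inferred from title letters. Libraries of the same letter, with group means removed, correlated at 0.155 on average (150 pairs, 93 above 0.1) against -0.0271 for others, with letter means from -0.00818 to 0.336, so the pairing is inferred. Replicates differed by more than counting error (chi-square per degree of freedom from 43.9 in 120 pairs). p-values between regions treat libraries of 1 letter as independent, unless blocked.

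In R 4.3.3, counts were filtered (filterByExpr, minimum count 10), TMM-scaled and fitted in edgeR 4.0.16 (quasi-likelihood test, two-sided; Benjamini-Hochberg over all tested miRNAs, threshold 0.05). Regions were compared in 1 model of 12 group means over 60 libraries, statuses within each region and in counts summed per letter. SE is the log2 difference over the square root of F. The fits were tested on simulated data. DESeq2 1.42.0, other scalings and filters, left-out letters, a letter block and leaving out libraries against their label (miR-196b under 50 CPM in the large or at least 50 CPM in the small intestine, miR-192 under 10000 CPM, or miR-122 of at least 100 CPM) were alternatives. Named miRNAs are the 5 most alike by each measure, the marker lists and those beside miR-205 by size of the difference, the last chosen after their values were seen. Members and lists were chosen with earlier results of these data known. Depth intervals and limits cover counting error only.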

Additional observations from a re-analysis of the deposited data

Results flagged for a closer look

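In 5 of 12 groups of 5 libraries, the highest miR-205 level lay further from its neighbour than Dixon's test allows at the 95% level. A rate of about 1 in 20 groups flagged by chance holds for normally distributed values. These levels are skewed and include zeros, so 5 of 12 cannot be read against that rate. Only 1 of the 5 flagged levels rests on many counts. It is the descending colon of super-shedder J, with 18.9 CPM on 233 counts beside at most 4.04 CPM in the other 4. Of those 4, the libraries of G, H and I are among the 13 against their label, and only that of F is not. The other flagged levels rest on few counts. These are the duodenum of super-shedder G, with 5.78 CPM on 12 counts beside at most 1.97 CPM, and the proximal jejunum of non-shedder B, with 5.01 CPM on 15 counts beside at most 1.32 CPM. The distal jejunum of non-shedder D held 4.25 CPM on 7 counts beside at most 0.963 CPM, and the proximal jejunum of super-shedder H held 1.78 CPM on 2 counts beside at most 0.301 CPM. The proximal jejunum of B is also 1 of the 13 libraries against their label. So are, among the libraries set beside the flagged ones, the duodenum and proximal jejunum of I and the distal jejunum of B.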

How the results depend on the processing

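The difference of miR-205 between large and small intestine kept its direction in the 18 alternatives run, with log2 values from 2.25 to 2.86 without single letters and from 2.33 to 3.21 otherwise, the latter with the replicate block and without the 13 libraries together, an alternative chosen after seeing the data. The replicate block alone gave 2.33. Of 320 alternative values, 315 moved by less than the SD between replicates. This yardstick is wide, at 1.11 on the log2 scale for differences between regions. The change of the descending colon from 1.52 to 0.65 without letter J stayed within it. Mean levels of a region without 1 letter could not move by more than it. The count of 315 is therefore no measure of stability. The 5 values that moved further were shedding differences. In the proximal jejunum the value was -0.44 without the libraries against their label, and ran from -3.07 to -0.49 without single letters. Without single letters it ran from 0.22 to 2.36 in the distal jejunum and from -2.40 to -0.56 in the descending colon. The sign differed in 7 values, all of them shedding differences, none called. These were the duodenum without G (-0.06), the cecum without E (-0.02), the spiral colon without D (0.08), and the summed counts without A (0.21), D (0.04), I (0.06) or the 13 libraries (0.23). Where edgeR called 1 miRNA each, DESeq2 called 11 (summed counts), 4 (distal jejunum) and 2 (spiral colon), and also 1 each in the duodenum and proximal jejunum, in no case miR-205. The cause was not tested. Requiring over 5 CPM in 5 libraries removed miR-205 from the small-intestine, descending colon and summed shedding fits. The ratio of both listed miRNAs was not run. Depth limits the small intestine most, where 83 counts of miR-205 stood in 56464517.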
